A study of Arabidopsis thaliana with 6 samples.

Results

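The 5 genes described here are Arabidopsis genes for legume-type lectins that lack a kinase domain: AT1G53070, AT1G53080, AT3G16530, AT3G15356 and AT5G03350. They were matched by locus tag to the annotation of an expression array, and 4 of the 5 had a probe set (short oligonucleotides read together as 1 measure of a transcript) assigned to that gene alone. AT3G15356 had no such named probe set and was not analysed here. The 4 stood among 13355 genes with a named probe set. The rule takes the brightest probe set of a gene, but each of the 4 had only 1, so brightness made no choice. The genes themselves were selected on measured values, since they were proposed with the results of the mutant against wild type comparison known. Their values in that comparison are therefore a description, and the calls given for them support nothing on their own.

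The samples were whole seedlings of the Col-0 accession, 3 of wild type and 3 of cdkf;1-2, a T-DNA insertion mutant of the cyclin-dependent kinase gene CDKF;1. The study's title names the product of this gene as a kinase of Serine-7 in the carboxy-terminal domain of RNA polymerase II. All seedlings were 7 days old, counted from germination in one label and from sowing in another, and were kept at 22 °C in days of 8 h of light and 16 h of dark, on solid medium that held 0.5% sucrose. Collection took place 4 h into the light period. Per the labels these are biological replicates, with nothing on whether cultures were separate, so p-values measure the spread between these samples. The mutant is represented by 1 insertion allele, and the level of the CDKF;1 transcript was not analysed here.

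Legume-type lectins are carbohydrate-binding proteins first known from the seeds of beans and their relatives. In Arabidopsis the same fold occurs in small soluble or secreted proteins and in the outer part of the L-type lectin receptor kinases, which sit in the plasma membrane. AT5G03350 encodes a salicylic acid-induced legume lectin-like protein (SAI-LLP1, also LLP1) with a known part in systemic resistance, and AT3G16530 is known to respond to chitin fragments. In the RefSeq gene order of the assembly TAIR10.1, AT1G53060, AT1G53070 and AT1G53080 follow each other directly on chromosome 1, and no role is given here for these 3. Coordinates are left out because no source used here names the build of the probe sets.

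All 4 measured lectin genes were higher in the mutant, from 2.68-fold for AT5G03350 to 7.35-fold for AT1G53080 (limma, 3 samples per group). The neighbours AT1G53070 and AT1G53080 rose 2.99-fold and 7.35-fold, and the chitin-responsive AT3G16530 rose 6.004-fold. For each of the 4 genes every mutant sample lay above every wild type sample. Over all genes with a named probe set, 6.57% were called higher and 13.1% were called in either direction at an adjusted p of 0.05, and 15.1% had all mutant samples above all wild type samples. Since the choice of genes used this contrast, nothing is read from 4 of 4 against these shares. Fold changes are on the scale of log2(quantile-normalized signal + 16), which understates the change of dim transcripts. In whole seedlings a change in the number of cells of a type and a change of RNA per cell cannot be told apart.

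AT3G16530 had quantile-normalized signals of 395, 338 and 429 in wild type replicates 1 to 3. In the mutant replicates 1 to 3 its signals were 2383, 2405 and 2396. The mutant samples were nearly equal, and the lowest of them was 5.55 times the highest wild type sample. Its log2 difference was 2.59 (SE 0.13, limma adjusted p = 0.000143), 13th from the top among the 13355 genes ordered by their difference. The deposited signals of this gene showed the opposite pattern of spread. They were 375, 380 and 383 in wild type, and 1521, 2755 and 3566 in the mutant. The medians of the deposited mutant arrays, 64.1, 89.1 and 114, ran in the same order as these mutant values, and those of wild type were 93.8, 104 and 85.0. The small spread of AT3G16530 within the mutant was seen in the quantile-normalized values and not in the deposited ones. Divided by these array medians, the mutant signal of replicate 1 stays below those of replicates 2 and 3, so the near-equal values are not seen on that scale. With the arrays scaled by their medians the log2 difference was 2.76 (SE 0.16). The gap between the genotypes was present on both scales.

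AT1G53080 had the largest difference of the 4 on this scale, and it was also the dimmest in wild type. Its normalized signals were 5.19, 2.999 and 4.12 in wild type and 109, 128 and 163 in the mutant. All mutant samples were at least 21.0 times the highest wild type sample. The log2 difference was 2.88 (SE 0.16, limma adjusted p = 0.000207), in place 9 among all genes. With wild type signals this far below the added 16, the size of the fold depends on that constant. With a constant of 1 the same data gave 26.4-fold, with 64 they gave 2.88-fold, and the ratio of the mean signals was 32.5. No detection calls were used here, so whether the wild type signal lay above background is not stated.

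AT1G53070 is the neighbour of AT1G53080. Its normalized signals were 59.2, 49.2 and 50.2 in wild type. They were 148, 219 and 211 in the mutant, where replicate 1 stood below the other two. The log2 difference was 1.58 (SE 0.17, limma adjusted p = 0.00182), in place 96 among all genes, and the ratio of the mean signals was 3.64. The fold was 3.55 with an added constant of 1 and 2.18 with 64. The 95% intervals of the log2 differences of AT1G53070, 1.19 to 1.98, and AT1G53080, 2.51 to 3.25, did not meet. With an added constant of 64 the differences were 1.12 and 1.53, so the distance between these neighbours also depends on the constant. The probe sequences were not used here, and how far each probe set also takes up the transcript of the neighbour was not tested.

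AT5G03350, the salicylic acid-induced lectin gene, varied most within wild type. Its normalized signals were 60.5, 31.6 and 45.8 there and 120, 145 and 182 in the mutant. The SD of its log2 values was 0.34 in wild type and 0.27 in the mutant, against 0.08 to 0.17 in wild type for the other 3 genes. The 0.08 belongs to AT1G53080, whose wild type signals lay far below the added constant, which narrows their spread on this scale. Divided by the wild type mean, the wild type signals of AT1G53080 ran from 0.731 to 1.26, and those of AT5G03350 from 0.687 to 1.32. The low SD of AT1G53080 therefore does not show a steadier signal. The log2 difference of AT5G03350 was 1.42 (SE 0.21, limma adjusted p = 0.00609), in place 134 among all genes. The groups still did not overlap, and the lowest mutant sample was 1.98 times the highest wild type sample.

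**Figure D1:**
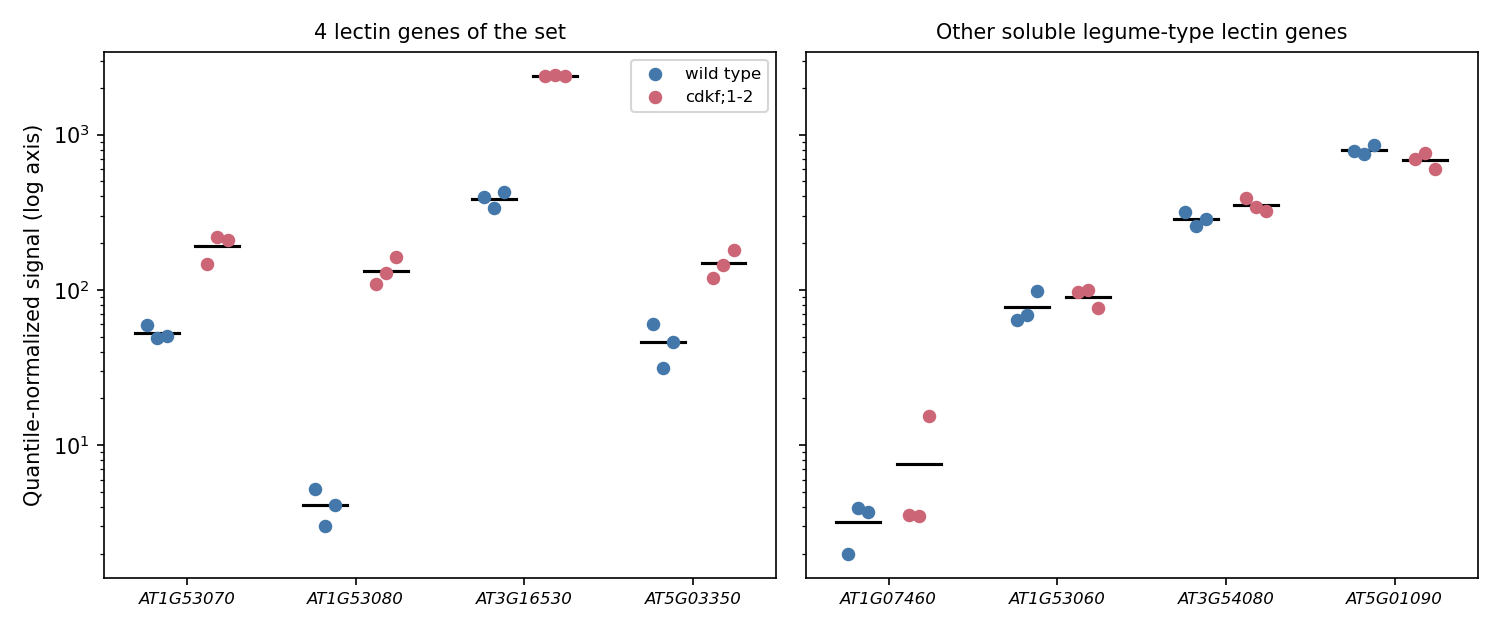
Quantile-normalized signal on a log axis of each of the 3 wild type samples (blue) and 3 cdkf;1-2 samples (red), replicates 1 to 3 from left to right, with the mean signal as a black bar. In the 4 genes on the left every mutant sample lies above every wild type sample, while for AT1G07460, AT1G53060 and AT5G01090 on the right the groups overlap.

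Within the mutant group, replicate 1 had the lowest normalized signal in all 4 genes, although the mutant signals of AT3G16530 were nearly equal. The same array had the lowest deposited median and, when weights were estimated over all probe sets, the lowest array weight (0.320, against 0.796 to 2.08 for the other arrays). Without it the log2 differences were 1.78 for AT1G53070, 3.07 for AT1G53080, 2.60 for AT3G16530 and 1.58 for AT5G03350, each above the value with all samples. Leaving out the lowest mutant sample raises the mutant mean, so this rise shows nothing further about that array. On the deposited signals, without any normalization, AT1G53070 (log2 1.51, limma adjusted p = 0.0855) and AT5G03350 (log2 1.36, limma adjusted p = 0.123) did not pass. AT1G53080 and AT3G16530 passed there as well (limma adjusted p = 0.012 and 0.0121).

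**Figure D2:**
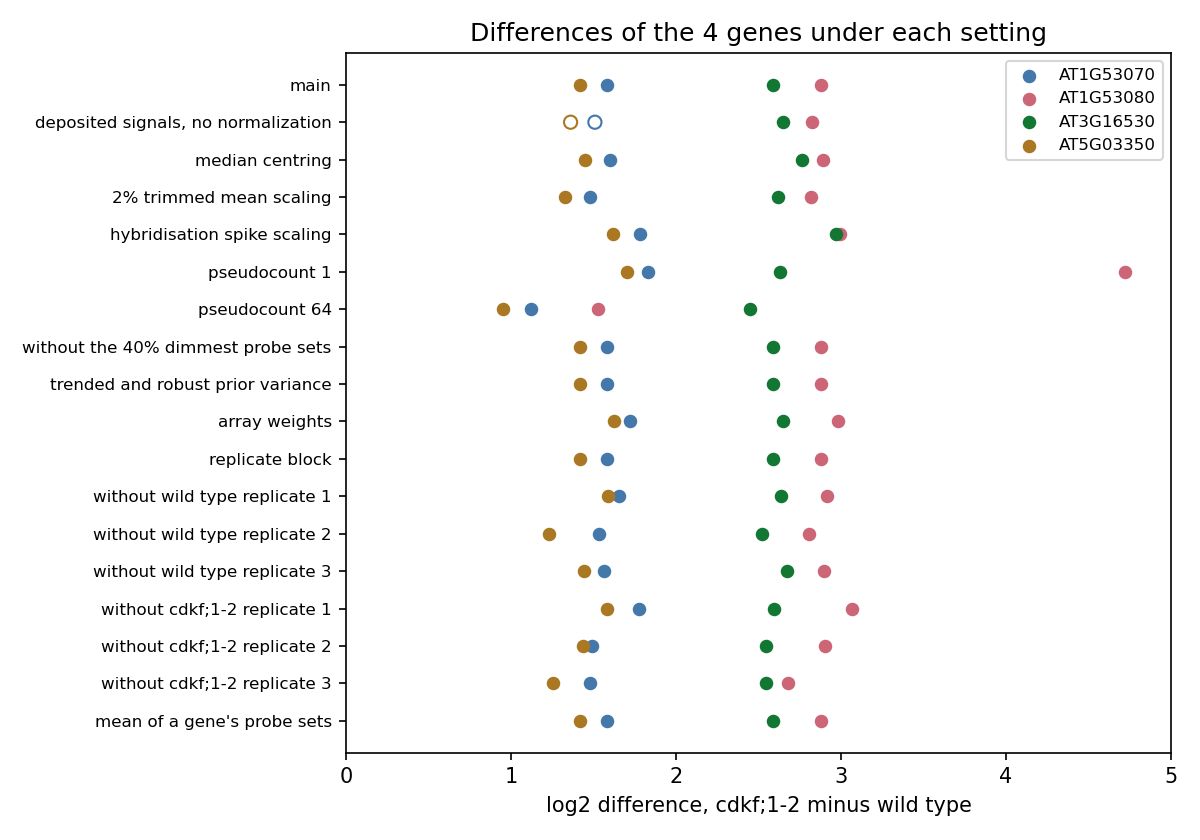
Log2 difference, cdkf;1-2 minus wild type, of the 4 lectin genes (colours) under the main setting and each alternative; filled points passed an adjusted p of 0.05 and open points did not. The differences are above 0 in every row. In the rows for the dimmest filter, the trended prior, the replicate block and averaged probe sets they equal the main setting by construction. The open points are AT1G53070 and AT5G03350 on the deposited signals, and AT1G53080 moves between 1.53 and 4.72 with the added constant.

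The order of the differences was not fixed by these data. AT1G53080 lay above AT3G16530 with the added constant of 16, but with 64 AT3G16530 had the larger difference (log2 2.45 against 1.53). AT5G03350 lay below AT1G53070 under each of the 5 scalings of the arrays, and their 95% intervals overlapped (0.92 to 1.92 and 1.19 to 1.98).

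Other soluble legume-type lectin genes, listed by locus tag, did not pass the same test. Of 5 such genes 4 were measured, and 0 rose or fell (limma), where 13.1% of all genes were called in either direction. Their median log2 difference was 0.23, against a median of 0.00 over all 13355 genes. At an unadjusted p of 0.05 the count was also 0. With only 4 genes, a count of 0 does not set these relatives apart from all genes. AT1G53060, which lies next to AT1G53070, had signals of 64.1, 69.3 and 98.4 in wild type and 96.3, 99.1 and 75.9 in the mutant. These groups overlapped, and its log2 difference of 0.20 had a 95% interval of -0.21 to 0.61. AT3G54080 had the only groups of these 4 that did not overlap, where 4202 of all 13355 genes had such groups, in either direction. Its signals were 318, 257 and 287 in wild type and 389, 343 and 323 in the mutant (log2 0.28, limma adjusted p = 0.224). AT5G01090 had a difference of -0.21, which became 0.17 when arrays were scaled on the hybridisation spikes. AT1G07460 was at or below 3.95 in all wild type samples, and at 3.57, 3.49 and 15.5 in the mutant. The genes described above were proposed with their differences known, so the contrast between them and these relatives may follow from that choice, and it was not tested.

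None of the 4 other measured neighbours of the pair on chromosome 1 was called (limma, also 0 at an unadjusted p of 0.05). Over all genes 13.1% were called in either direction, so with 4 genes this does not set the neighbours apart. AT1G53050 (log2 0.05), AT1G53060 (0.20), AT1G53100 (0.02) and AT1G53110 (-0.28) each had a 95% interval that included 0. AT1G53040 and AT1G53090 had no named probe set and were not analysed here.

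Lectins of other folds were taken by the word lectin in their RefSeq names, a list made after the signals were available. Of 12 such genes 5 were measured, of which 2 rose and 0 fell (limma), where 6.57% of all genes were called higher and 13.1% in either direction. JAL22, of the jacalin-related lectin family, rose 1.87-fold (log2 0.90, SE 0.15), with wild type signals of 521, 411 and 400 and mutant signals of 940, 817 and 766. JAL33, of the same family, rose 1.40-fold (log2 0.49, SE 0.11), and its differences reached 1.00 when arrays were scaled on the spikes. Neither passed on the deposited signals (limma adjusted p = 0.15 and 0.346). JAL23 (log2 0.39), EULS3 (-0.24) and JAL34 (-0.28) did not pass, and JAL34 changed sign with median centring (0.02) and with spike scaling (0.23).

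**Figure D3:**
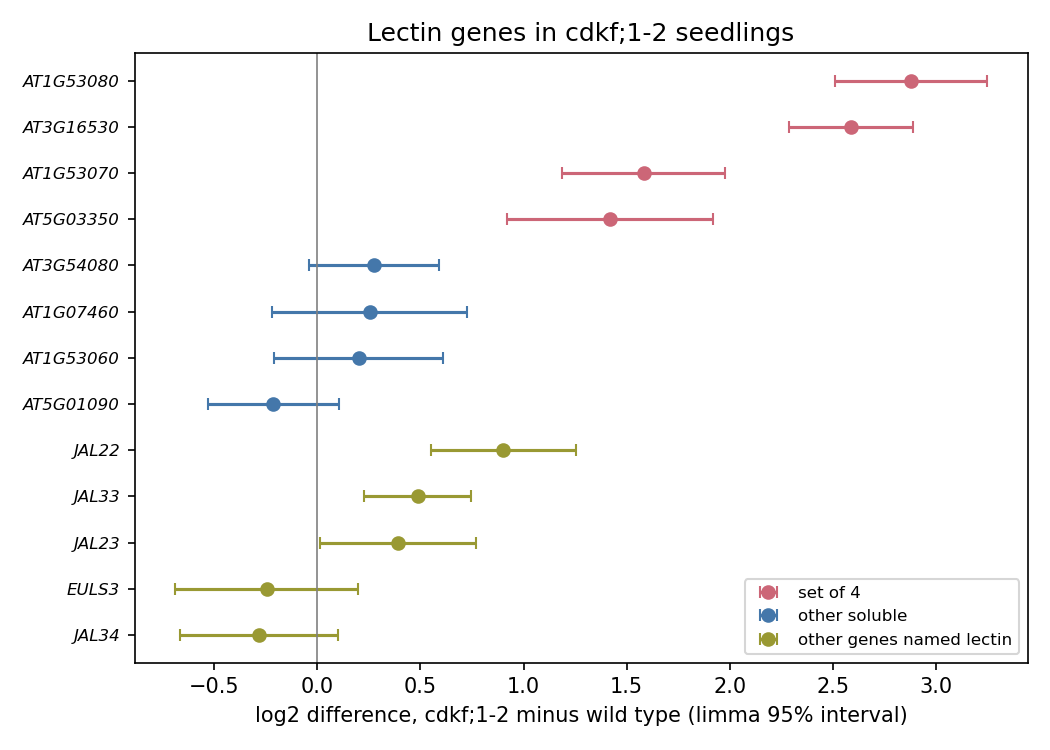
Log2 difference, cdkf;1-2 minus wild type, with limma's 95% interval from 3 samples per group, for the 4 lectin genes (red), the other soluble legume-type lectin genes (blue) and other genes named lectin (olive). The red intervals lie between 0.92 and 3.25, and the 4 blue intervals all include 0.

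The L-type lectin receptor kinases share the lectin fold, but 0 of 42 listed genes had a named probe set, so they were not analysed here. Genes of the pathways to which AT5G03350 and AT3G16530 are known to respond were measured in part. In a list of chitin perception and response genes 4 of 14 were measured, and 3 rose and 0 fell, with a median log2 difference of 0.72 (6.57% of all genes were called higher). STZ, a zinc finger gene induced by many stresses, rose 2.23-fold, from 47.6, 44.3 and 41.4 to 101, 120 and 138. WRKY53, a transcription factor gene, rose 1.87-fold, from 21.1, 23.2 and 15.2 to 50.5, 48.6 and 52.7. BIK1, a kinase that works with immune receptors, rose 1.44-fold (limma adjusted p = 0.0244). PUB24, a ubiquitin ligase gene, did not pass (log2 -0.14). On the deposited signals 0 of these genes passed (limma). BIK1 also lost its call with a pseudocount of 1 (limma adjusted p = 0.054) and without wild type replicates 1, 2 or 3 or cdkf;1-2 replicates 2 or 3, each left out in turn (limma adjusted p = 0.0537 to 0.0987). WRKY53 was among the 40% dimmest probe sets and was not tested where those were left out.

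Of 20 genes of salicylic acid and systemic acquired resistance 2 were measured, and neither passed. GRX480, a glutaredoxin gene induced by salicylic acid, had signals of 25.6, 28.1 and 31.9 in wild type and 25.3, 31.8 and 53.8 in the mutant. SAG101, a partner of the immune regulator EDS1, had a log2 difference of 0.00 (95% interval -0.37 to 0.37). Of 18 jasmonate and ethylene response genes 2 were measured, THI2.1 (log2 0.44) and PDF1.2 (log2 0.28), and neither passed. With 2 genes in each list, these pathways were hardly sampled.

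Several genes followed the lectin genes closely over the 6 samples, by Pearson's correlation of log2 signals. The samples form 2 groups, so the gap between genotypes enters every such correlation. Each of the 4 genes had 120 to 344 genes at 0.95 or above among the 6330 genes compared. The most similar to AT1G53080 were AT1G65500 (r = 0.9997) and AT1G61660 (r = 0.9988), whose log2 differences were 3.72 and 0.79. AT3G16530 was closest to ATPMEPCRB (r = 0.9997, log2 2.57) and AT2G43620 (r = 0.9994, log2 5.23). AT1G53070 was closest to AT3G48970 (r = 0.9986, log2 1.74) and AT1G70470 (r = 0.9977, log2 0.96), and in AT3G48970 mutant replicate 1 was likewise the lowest mutant sample. AT5G03350 was closest to AT1G50110 (r = 0.9960) and AT2G28660 (r = 0.9936). Among themselves the 4 lectin genes correlated at r = 0.953 to 0.993 over these samples, which share the same arrays.

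Markers of seedling parts and array controls were compared between the genotypes too. Of 10 root and root hair markers 3 were measured, of which 1 fell and 2 did not pass (limma), where 871 of all 13355 genes fell. The summed signal of the 3 was 433 to 465 in wild type and 257 to 306 in the mutant. In all 3 every mutant sample lay below every wild type sample. Of all 13355 genes, 4202 had groups that did not overlap, in either direction, and 2020 of those were higher in the mutant. EXPA7 (log2 -1.42, limma adjusted p = 0.062) and HRGP1 (log2 -0.40, limma adjusted p = 0.136) did not pass. EXPA18, a root hair expansin gene, was the one that fell (log2 -0.73, limma adjusted p = 0.028). Its call was lost with spike scaling (adjusted p = 0.119) and on the deposited signals (adjusted p = 0.227). The 2 measured shoot markers of 10, RCA and LHCB4.1, summed to 19996 to 20646 in wild type and 17935 to 18521 in the mutant, and no marker was at 0. Neither shoot marker passed (limma adjusted p = 0.453 and 0.522). With spike scaling the differences of both shoot markers turned positive (0.14 and 0.17). Of 10 seed and reserve markers only ICL, isocitrate lyase, was measured, at 59.9 to 103 in wild type and 792 to 1320 in the mutant, and it rose (limma adjusted p = 0.000526). The control for 25S ribosomal RNA, divided by its array's median, was 44.9 to 53.7 in wild type and 85.9 to 109 in the mutant. The ratio of signal at the 3' end of a transcript to that at its 5' end, which depends on RNA integrity and labelling, was read from 2 versions of 3 array controls. For ubiquitin it was lower in the mutant in both versions, at 2.69 to 3.21 in wild type against 1.87 to 2.67, and at 1.60 to 1.74 against 1.38 to 1.52. For actin it was 2.05 to 2.48 in wild type against 2.64 to 2.91 in one version, while the groups overlapped in the other (8.19 to 9.40 against 9.15 to 9.55). For GAPDH the versions ran in opposite directions, at 0.887 to 0.960 in wild type against 1.00 to 1.07, and at 1.15 to 1.25 against 0.951 to 1.04. The part of these measures in the differences of the lectin genes was not tested.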

How the data were processed

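Biotin-labelled cRNA from total RNA of 6 seedling samples was hybridised to expression arrays with 22810 probe sets. The authors deposited a table of linear intensities, 1 for each sample and probe set. GCOS is named per the submitters' processing notes, and no source used here gives its version, settings or any scaling. Quantile normalization, the addition of 16 and log2 were applied in this order, since the deposited medians differ between arrays. After leaving out 64 control probe sets, 22746 were fitted in R 4.3.3 with the limma package, version 3.58.1 (lmFit, eBayes, a term for genotype and no other, two-sided), with Benjamini-Hochberg adjustment over all of them and a threshold of 0.05. Precision is limited by the number of arrays. Of the fitted probe sets 13513 had 1 gene in the array annotation, with 13436 updated through RefSeq gene IDs, 503 had several and 8730 were not listed. The brightest stood for a gene.

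The members, lists and tests were chosen with earlier results of these data known. The text names the 4 measured members, the measured relatives and neighbours, at most 4 called members of a context list, and the 2 genes most like each member among those whose higher group mean exceeded the median of all probe sets. Other genes are given as values for not passing, and the list of genes named lectin was added later. The fit was also run on simulated data, and no result of that run is given or used here. The labels do not say that a replicate number marks a shared culture or day, so the numbers were not taken as pairs. Same-numbered samples of the 2 genotypes had deviations correlated at 0.30, 0.01 and 0.15, and unlike-numbered samples at -0.24 to 0.15. With 3 samples per group these values cannot settle whether the numbers mark pairs. Alternatives were 4 other scalings, pseudocounts of 1 and 64, a robust prior variance with a trend, array weights, a replicate block, averaging the probe sets of a gene, leaving out the 40% dimmest probe sets, and leaving out each sample in turn.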

Additional observations from a re-analysis of the deposited data

How the results depend on the processing

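Over 17 alternatives each, the 4 lectin genes kept a positive difference. Leaving out the dimmest probe sets, the trended prior, the replicate block and averaging of probe sets kept these differences unchanged by construction. Under those settings only the standard error and the adjusted p could move. AT1G53080 and AT3G16530 kept their calls in all 17 alternatives. On the deposited signals AT1G53070 (log2 1.51, adjusted p = 0.0855) and AT5G03350 (log2 1.36, adjusted p = 0.123) lost theirs, which left 2 of the 4 called, 0 in place of 3 of the 12 measured genes of the soluble lectin, salicylic acid, jasmonate and chitin lists, and 328 probe sets in place of 3267. These arrays lie on unequal scales, and the standard errors of the 2 genes, 0.34 and 0.35, were larger than the 0.17 and 0.21 after normalization. A pseudocount of 1 gave 2122 called probe sets and array weights gave 5612; the cause was not tested. With a replicate block 3382 probe sets were called, and the adjusted p of the 4 genes was 0.00304 to 0.0157. That block changed no call of the 4 genes. Leaving out 1 sample gave 1496 (without wild type replicate 2) to 4107 (without cdkf;1-2 replicate 1) called probe sets. Without wild type replicate 1, wild type replicate 3, cdkf;1-2 replicate 2 or cdkf;1-2 replicate 3 the counts were 1837, 2019, 1873 and 1865. In those fits the differences of the lectin genes ranged from 1.48 to 1.78 for AT1G53070, 2.68 to 3.07 for AT1G53080, 2.52 to 2.67 for AT3G16530 and 1.23 to 1.59 for AT5G03350, with adjusted p up to 0.0276. Spike scaling shifted the median of all probe sets by 0.17 and made 80.3% of the calls higher in the mutant against 48.3%, and all 4 genes still passed there. No detection calls were used, so the signal of AT1G53080 in wild type was not separated from background.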
